A study of Mus musculus with 63 samples.

Results

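The 10 genes described here mark disease-associated microglia, and their levels were followed through 4 sorted cortical populations of burn-injured and sham-injured mice. They were Apoe, Trem2, Tyrobp, Cst7, Lpl, Itgax, Clec7a, Axl, Spp1 and Gpnmb, taken by name, and all 10 were found among the 56980 gene IDs of the count tables. Every mouse was a female C57BL/6J of 12 weeks, and every mouse, sham included, had received viral vectors into the motor cortex of both hemispheres. Burn mice were given a full-thickness contact burn of 7 to 8% of body surface on the flank, sham mice had every other procedure including the shaving, and cells were sorted 5 weeks later. Some burn mice also received an opioid after surgery. CaMKII positive cells (eGFP from a CaMKII promoter vector) and double-positive cells (eGFP together with mRuby2 from an mDlx enhancer vector) came from motor cortex, while ACSA2 astrocytes and CD11b microglia were stained with antibodies and came from cortex behind it.

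The microglia gate rests on CD11b, which other myeloid cells also carry. Unless stated otherwise, values are from 58 of 63 libraries and 17 mice, after leaving out mouse 3 and the double-positive library of mouse 8, which held 331215 counts. The libraries kept held 13346143 to 134703744 counts. They were 4 burn and 6 sham CaMKII positive, 9 and 7 double-positive, 9 and 8 ACSA2 astrocyte, and 8 and 7 CD11b microglia libraries, sequenced in 3 batches. A library is a separate mouse within its population. Levels are in CPM, the count of a gene over the library total on a common scale, and in bulk samples of this kind fewer cells of a type cannot be told apart from less RNA per cell.

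Disease-associated microglia are a state first described around amyloid plaques and in demyelination. The receptor TREM2 binds lipids and apolipoproteins and signals through the adaptor DAP12, encoded by Tyrobp, and this pathway is needed for the full state. Apoe, the main lipid carrier of the brain, and Lpl, lipoprotein lipase, handle lipids. Clec7a (dectin-1), Itgax (CD11c) and Axl (a receptor tyrosine kinase for dying cells) are surface receptors, Cst7 (cystatin F) inhibits lysosomal proteases, and Spp1 (osteopontin) and Gpnmb are linked to phagocytosis and tissue repair.

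The sorted populations did not all carry the transcripts their labels name. The summed level of 12 microglial markers, P2ry12 and Tmem119 among them, was 25347 to 39623 CPM in CD11b microglia and 20757 to 39537 CPM in double-positive libraries. It was 540 to 2251 CPM in CaMKII positive and 156 to 319 CPM in ACSA2 astrocyte libraries. The 10 pan-neuronal markers summed to 18.8 to 57.0 CPM in double-positive and 333 to 553 CPM in CaMKII positive libraries, against 516 to 1221 CPM in ACSA2 astrocytes. Other neuronal lists stood higher in CaMKII positive libraries than in astrocytes. The median sum was 130 against 39.2 CPM for 7 excitatory and 24.2 against 7.97 CPM for 10 inhibitory markers. In that comparison 7 of 10 pan-neuronal, 7 of 7 excitatory and 9 of 10 inhibitory log2FC were above 0. Of these, 2, 2 and 3 were called higher and none lower, where 12.7% of all genes were called higher. The 10 astrocyte markers summed to 14352 to 26465 CPM and 10 endothelial markers to 5458 to 15115 CPM in CaMKII positive libraries. The double-positive and CaMKII positive libraries are therefore called here by their gates and not as neurons.

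The receptor complex was high and even in both microglia-rich populations. In CD11b microglia, Trem2 had a lowest, median and highest value of 423, 497 and 620 CPM, and Tyrobp of 282, 335.5 and 412 CPM. In double-positive libraries the same values were 435, 492 and 767 CPM for Trem2, and 290, 334 and 376 CPM for Tyrobp. Libraries of both populations overlapped along nearly their whole range. In ACSA2 astrocytes Trem2 reached at most 2.73 CPM and Tyrobp 2.46 CPM, and 4 of 17 libraries for Trem2 and 5 of 17 for Tyrobp held no count.

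**Figure D1:**
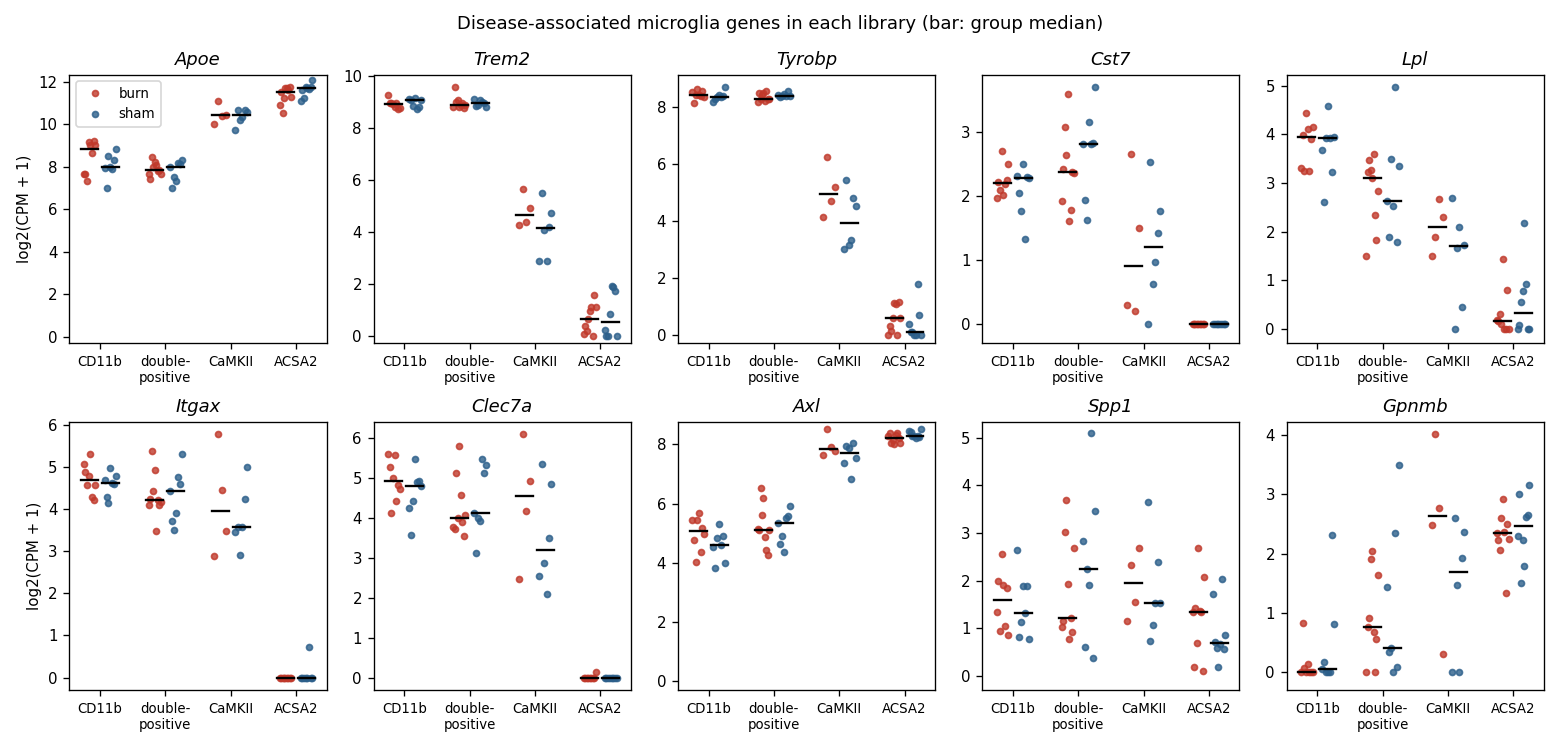
Level of each of the 10 genes in each library, as log2(CPM + 1), with populations on the horizontal axis, burn libraries in red, sham libraries in blue and a black bar at each group median. Trem2, Tyrobp, Cst7, Lpl, Itgax and Clec7a were high in the CD11b and double-positive populations and near 0 in ACSA2 astrocytes, while Apoe and Axl ran the other way.

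CD11b microglia were compared with ACSA2 astrocytes to see which of the 10 genes are microglial in this tissue. Of the 10 members, 6 were called higher and 3 lower in CD11b microglia (p.adj at or under 0.05 and absolute log2FC of at least 1). Calls were common in this comparison: 54.2% of the 30983 genes tested were called, 21.8% of them higher and 32.4% lower in CD11b microglia. The median log2FC was 6.93 over the 10 members and −0.28 over all genes tested. Trem2 was higher by a log2FC of 9.26 (SE 0.43, edgeR p.adj = 1.11e-19) and Tyrobp by 9.39 (SE 0.39, edgeR p.adj = 4.06e-21).

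The surface receptors Clec7a and Itgax were almost absent from astrocyte libraries. Clec7a ranged from 10.9 to 47.5 CPM with a median of 27.5 CPM in CD11b microglia, against 3 counts in all, in 1 of 17 astrocyte libraries. Over pooled counts that is a ratio of 4687 (95% exact interval 1603 to 22732, counting error only). Itgax ranged from 16.6 to 38.4 CPM with a median of 23.5 CPM in CD11b microglia, and its 19 astrocyte counts all came from the sham library of mouse 17, which also had the highest astrocyte value of Tyrobp. Neither gene overlapped between the populations, and edgeR p.adj was 9.47e-26 for Clec7a and 4.51e-18 for Itgax.

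Cst7 was present in every CD11b microglia library, at a lowest, median and highest value of 1.51, 3.67 and 5.53 CPM, and had no count in any of the 17 astrocyte libraries. Against a floor of 3 counts per library, 0.11 CPM on average, it was at least 32.9-fold higher (edgeR p.adj = 9.89e-13). Lpl ranged from 5.12 to 23.1 CPM with a median of 14.1 CPM in CD11b microglia and from 0 to 3.55 CPM in astrocytes, without overlap, a log2FC of 4.79 (SE 0.57, edgeR p.adj = 4.42e-09). A small share of the Lpl transcript, 1.14% of its 50-base windows, recurs in other transcripts, and for Itgax the figure is 8.02%, shared with Itgad.

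Apoe and Axl were astrocyte-high. Apoe had a lowest, median and highest value of 1480, 3172 and 4298 CPM in ACSA2 astrocytes and of 125, 323 and 587 CPM in CD11b microglia. Axl had 258.5, 312 and 361 CPM in ACSA2 astrocytes and 13.1, 27.4 and 50.3 CPM in CD11b microglia. For both genes every astrocyte library was above every microglia library. Apoe was 9.72-fold lower in CD11b microglia (log2FC −3.28, SE 0.16, edgeR p.adj = 1.78e-19) and Axl 11.7-fold lower (log2FC −3.55, SE 0.15, edgeR p.adj = 1.45e-20).

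Gpnmb, a transmembrane glycoprotein often used as a late marker of the state, was hardly measurable in CD11b microglia. It had no count in 8 of 15 libraries, a median of 0 CPM and a highest value of 3.97 CPM. All 17 astrocyte libraries held counts, between 1.53 and 7.98 CPM with a median of 4.11 CPM, and the log2FC was −3.95 (SE 0.76, edgeR p.adj = 2.55e-05). Of the 7 CD11b libraries with counts, 3 were burn and 4 were sham. Spp1 was low in both populations, with medians of 1.53 CPM in CD11b microglia and 0.820 CPM in astrocytes, and its log2FC of 0.43 (SE 0.45, edgeR p.adj = 0.395) did not pass the test. Counts of Spp1 are uncertain because 18.8% of its exon bases lie under another gene of the same strand, Gm42793.

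Levels of different genes can be set side by side only per length, here CPM per kilobase of exon. On that scale the order in CD11b microglia was led by Tyrobp at 508.5, Apoe at 161 and Trem2 at 101 CPM per kb. Clec7a (10.9), Axl (5.72), Itgax (5.13) and Cst7 (3.65) followed, and Spp1 (1.31), Lpl (1.27) and Gpnmb (0.0595) came last. In ACSA2 astrocytes Apoe reached 1373 and Axl 61.4 CPM per kb, and none of the others was above 0.869 CPM per kb.

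Partners of these genes are read against the shares of all genes, 21.8% higher and 32.4% lower. Of 15 genes of TREM2 and DAP12 signalling, such as the kinase Syk and the phospholipase Plcg2, 15 were called higher in CD11b microglia. Of 20 further genes of the disease-associated state, 16 were called higher and 2 lower. Of 15 lipoprotein and cholesterol genes, 14 were tested, 2 were called higher and 7 lower. Of 8 integrin and osteopontin partners, 6 were called higher and none lower. Of 4 sister receptors of AXL and ligands of that receptor family, 1 was called in each direction, which is near the share over all genes.

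Promoters are shown for one microglia-high and one astrocyte-high member, since the pair moved in opposite directions between these populations. Sequences are from the RefSeq promoter table of build GRCm38.p6, which runs from 250 bases before to 50 bases after a transcript start and held 12 promoters of 8 members. Capitals mark GAGGAA read on either strand (here as TTCCTC), a purine-rich core of the kind bound by PU.1, the ETS factor of myeloid cells. The Trem2 promoter is chr17:48346151-48346450 on the plus strand, and that of Axl is chr7:25788684-25788983 on the minus strand.
Trem2: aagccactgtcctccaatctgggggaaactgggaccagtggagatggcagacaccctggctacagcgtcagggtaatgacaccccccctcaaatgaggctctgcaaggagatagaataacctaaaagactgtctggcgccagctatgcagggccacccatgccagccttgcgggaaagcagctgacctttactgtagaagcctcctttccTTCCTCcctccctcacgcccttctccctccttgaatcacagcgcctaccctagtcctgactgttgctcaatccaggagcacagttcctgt
Axl: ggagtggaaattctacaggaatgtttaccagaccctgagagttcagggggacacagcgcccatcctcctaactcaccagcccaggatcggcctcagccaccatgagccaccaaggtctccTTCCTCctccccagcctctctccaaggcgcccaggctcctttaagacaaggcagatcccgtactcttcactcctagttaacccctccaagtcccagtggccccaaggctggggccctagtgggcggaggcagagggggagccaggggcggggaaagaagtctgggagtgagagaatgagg
Each promoter held 1 copy. Those 6 letters occurred in 7 of the 12 member promoters and in 28.3% of all 32851 promoters of the table, so that a match describes the sequence only.

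Double-positive libraries were then set against CD11b microglia, to ask how far the 10 genes differ between both microglia-rich gates. None of the 10 members was called by edgeR or by DESeq2, 6 of them had an unadjusted edgeR p under 0.05 where 30.75% of all genes did, and 7.58% of 28752 genes tested were called, 5.6% higher and 1.98% lower in double-positive libraries. The median log2FC was −0.05 over the members and 0.09 over all genes. Trem2 differed by −0.02 (SE 0.06, edgeR p.adj = 0.844) and Tyrobp by −0.08 (SE 0.05, edgeR p.adj = 0.262). The 95% intervals of these differences ran from −0.14 to 0.10 and from −0.18 to 0.02.

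Microglial markers were slightly lower in double-positive libraries than in CD11b microglia, with 12 of 12 log2FC below 0, a median of −0.34, an unadjusted p under 0.05 for each and none called. The part of that shift in the differences of the members was not tested. Apoe was lower in double-positive libraries, 128 to 355 CPM with a median of 240 CPM, than in CD11b microglia, and the ranges overlapped. Its log2FC was −0.47 (SE 0.16, edgeR p.adj = 0.0318), below the fold limit for a call, and in batch 3 alone it was −0.78 (edgeR p.adj = 0.000309). In batch 1 the burn means ran the other way, 242 CPM in double-positive and 188 CPM in CD11b libraries, and 3 of the 14 mice with both libraries were higher in the double-positive one. Lpl was at 1.83, 6.85 and 30.5 CPM in its lowest, median and highest double-positive library, with a log2FC of −0.71 (SE 0.28, edgeR p.adj = 0.0682). Its highest library was that of sham mouse 17, and without that mouse Lpl was called, with a log2FC of −1.05 (edgeR p.adj = 0.00268). Gpnmb had counts in 13 of 16 double-positive libraries, up to 10.3 CPM, with a log2FC of 2.39 (SE 0.96, edgeR p.adj = 0.0811).

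With each mouse as a block, over the 14 mice that gave both libraries, Lpl and Gpnmb were called and 3.88% of 28169 genes were. Lpl then had a log2FC of −1.11 (edgeR p.adj = 0.00107) and was lower in the double-positive library of all but 2 of the 14 mice. Gpnmb had a log2FC of 3.35 (edgeR p.adj = 0.0388) and was higher in the double-positive library of 9 of the 14 mice. Astrocyte markers moved in the same direction as Gpnmb, with 8 of 10 called higher in double-positive libraries in this fit too, where 2.65% of all genes were (497 to 1509 CPM in sum against 207 to 367 CPM), and their part in its level was not tested. Neutrophil markers fell, 7 of 7 called lower, and 7 of 8 border macrophage markers did too, where 1.23% of all genes were called lower.

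Cst7 was at 2.07, 4.82 and 12.1 CPM in double-positive libraries, a wider spread than in CD11b microglia, and Clec7a at 7.78, 15.5 and 54.3 CPM. Itgax was at 10.1, 17.6 and 40.4 CPM, Axl at 18.3, 33.9 and 92.0 CPM, and Spp1 at 0.299, 2.79 and 33.1 CPM. All 5 genes overlapped with CD11b microglia. Their log2FC ran from −0.29 for Clec7a to 1.24 for Spp1, with edgeR p.adj between 0.0997 and 0.399. The highest Spp1 library was again that of sham mouse 17, and its log2FC was 0.58 without that mouse and 0.30 with each mouse as a block.

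CaMKII positive libraries held more Apoe and Axl than any microglia-rich library, and Trem2 and Tyrobp at levels between those of astrocytes and microglia. Against ACSA2 astrocytes, 5 members were called higher and Apoe was called lower, where 16.2% of 30729 genes were called, 12.7% higher and 3.5% lower. Apoe was at 838, 1362 and 2184 CPM (log2FC −1.31, SE 0.13, edgeR p.adj = 3.84e-09), overlapping the astrocyte range. Axl was at 112, 226 and 369 CPM, with a log2FC of −0.64 (SE 0.14, edgeR p.adj = 0.000479) that is under the fold limit.

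Trem2 was at 6.32, 19.1 and 49.4 CPM in CaMKII positive libraries and Tyrobp at 7.04, 23.4 and 75.2 CPM, both above every astrocyte library. Their log2FC against astrocytes were 4.53 (SE 0.58, edgeR p.adj = 2.30e-07) and 5.41 (SE 0.62, edgeR p.adj = 3.18e-08). Clec7a ranged from 3.33 to 67.8 CPM, a pooled ratio of 2782 to the astrocytes (95% exact interval 951 to 13492, counting error only). Itgax ranged from 6.38 to 54.0 CPM, and its pooled ratio to the astrocytes was 391 (95% exact interval 250 to 650.5, counting error only). Cst7 was at least 16.4-fold higher than the astrocyte floor, with counts in 9 of 10 libraries, and edgeR p.adj was 6.68e-13, 6.88e-10 and 4.05e-05 for Clec7a, Itgax and Cst7. Lpl, Spp1 and Gpnmb were not called, with log2FC of 2.37, 0.94 and −0.43 (edgeR p.adj = 0.0612, 0.244 and 0.669).

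Relative to Tyrobp, 7 of the other 9 members stood higher in CaMKII positive libraries than in either microglia-rich population. Lpl did not pass and Trem2 was lower. Tyrobp itself had a median of 23.4 CPM there, against 334 CPM in double-positive and 335.5 CPM in CD11b libraries. Any gene that fell less stands higher by this measure, and the share over all genes was not computed. In CPM the medians of Clec7a, Itgax, Cst7 and Spp1 were lower there than in double-positive libraries, and those of Apoe, Axl and Gpnmb higher. Clec7a was at 13.8 against 15.5, Itgax at 10.9 against 17.6 and Cst7 at 1.33 against 4.82 CPM. As a percent of the Tyrobp CPM of the same library, the median for Clec7a was 74.9% in CaMKII positive, 4.74% in double-positive and 7.85% in CD11b microglia libraries. For Itgax these medians were 76.5%, 5.49% and 6.91%, and for Cst7 6.9%, 1.49% and 1.06%. Trem2 ran the other way, at 86.3%, 155% and 143%.

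The ratio of Clec7a to Tyrobp was higher in the CaMKII positive library in 9 of 9 mice with a double-positive library and in 10 of 10 with a CD11b library, and the same held for Itgax. On the log2 scale the mean difference from double-positive libraries was 3.24 (SD 1.05 over 9 mice) for Clec7a and 3.42 (SD 0.64 over 9 mice) for Itgax, each with an exact two-sided sign-flip p of 0.00391, the smallest that 9 pairs allow. Cst7 differed by 1.89 (SD 1.04), also with an exact sign-flip p of 0.00391, and Trem2 by −0.62 (SD 0.48), with an exact sign-flip p of 0.0117. Against CD11b microglia the mean differences were 3.00 for Clec7a and 3.29 for Itgax (exact sign-flip p = 0.00195 each, the smallest that 10 pairs allow), 2.24 for Cst7, higher in 8 of 10 mice (exact sign-flip p = 0.00781) and −0.66 for Trem2 (exact sign-flip p = 0.00586). After Benjamini-Hochberg adjustment over the 18 ratios tested, the exact p of these 4 genes lay between 0.00586 and 0.0132 in both comparisons. Apoe, Axl, Spp1 and Gpnmb, which astrocyte libraries also held, passed in both too. Against double-positive libraries their mean log2 differences were 6.48, 6.44, 3.27 and 5.67, and against CD11b microglia 6.07, 7.00, 4.47 and 7.23, with adjusted exact p from 0.00586 to 0.00938, and of these 4 only Gpnmb was not higher in every mouse (8 of 9 with a double-positive library). The size for Gpnmb depends on the pseudocount, since most CD11b libraries held no count of it, and with 1 CPM in place of 0.1 CPM its differences were 4.67 and 5.45. Lpl did not pass in either comparison (adjusted exact p = 0.0538 and 0.148). These ratios were chosen after their values had been seen.

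**Figure D2:**
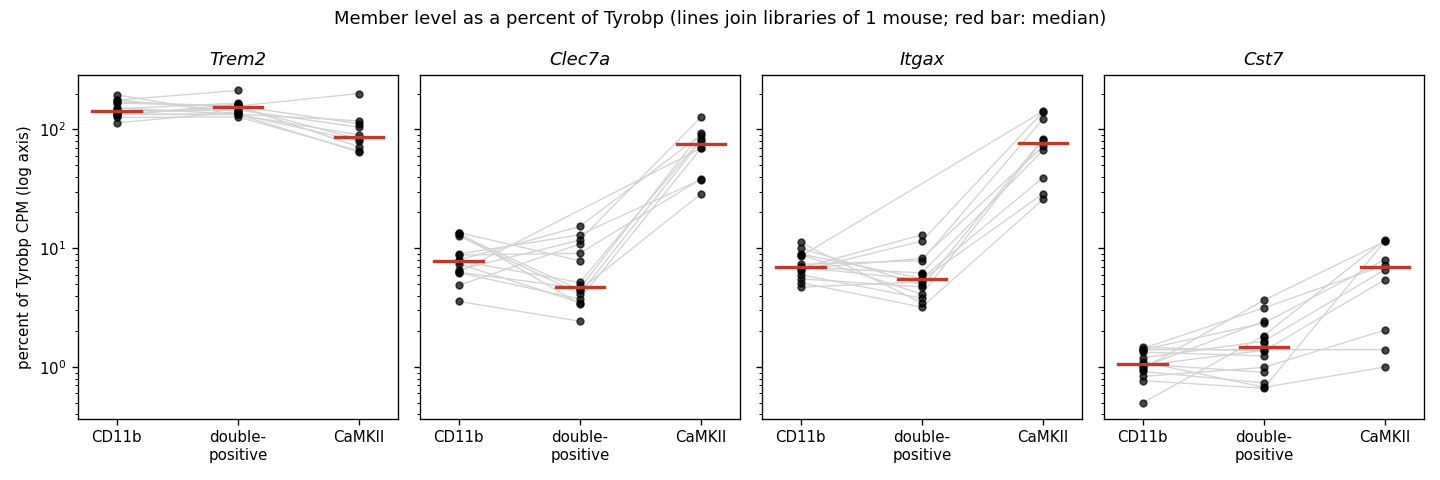
Level of Trem2, Clec7a, Itgax and Cst7 as a percent of the Tyrobp level of the same library, on a log axis, in CD11b microglia, double-positive and CaMKII positive libraries, with grey lines joining the libraries of a mouse and red bars at the medians. The medians of Clec7a and Itgax were under 8% in CD11b microglia and double-positive libraries and 74.9% and 76.5% in CaMKII positive ones, while that of Trem2 was lower there. Values are not per length, so each gene is compared between populations only.

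Transcripts of other cells were set against Tyrobp in the same way, and they did not all move alike. Relative to Tyrobp, the chemokine receptor Ccr2 of monocytes had a median of 73.5% in CaMKII positive against 2.84% in double-positive and 7.68% in CD11b libraries. The antigen-presentation chain Cd74 had 1020% against 19.2% and 53.85%, and Flt3 of dendritic cells 17.2% against 0.218% and 0.457%. Among the 8 border macrophage markers, 7 had a higher median than in double-positive and 3 a higher one than in CD11b libraries. Mrc1, the mannose receptor, had 43.9% against 21.6% and 51.25%, and the scavenger receptor Stab1 574% against 316% and 385%. The microglial receptors P2ry12 (334% against 693% and 779%), Csf1r (1215% against 1657% and 2133%) and Cx3cr1 (593.5% against 1099% and 1314%) were lower, as were 11 of all 12 microglial markers. The monocyte gene Chil3 and all 7 neutrophil markers had a median of 0 CPM in CaMKII positive libraries, while Chil3 had 4.80 CPM in CD11b microglia. The 6 dendritic cell markers summed to 49.4 to 117 CPM in CaMKII positive, 12.9 to 37.8 CPM in double-positive and 27.0 to 56.35 CPM in CD11b libraries. Zbtb46, which endothelial cells also express, stood at 279% of Tyrobp against 1.71% and 2.01% and carried most of the CaMKII positive sum (median 55.7 CPM). Relative to Tyrobp, Cd209a had 19.0% against 0.675% and 4.335% and Itgae 25.6% against 2.83% and 3.235%, while in CPM both medians were lower in CaMKII positive than in CD11b libraries (4.40 against 14.5 and 4.52 against 10.75 CPM). The part of these cells in the Clec7a and Itgax levels was not tested.

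The study's own question was whether a burn changes these cells 5 weeks later. No member was called between burn and sham mice in any of the 4 populations, where edgeR called 0% of the 26079 to 28107 genes tested in each. At an unadjusted p under 0.05 edgeR found 1096 genes in CaMKII positive, 1872 in double-positive, 2984 in ACSA2 astrocyte and 2036 in CD11b microglia libraries. Members among them were Tyrobp in CaMKII positive, Itgax in ACSA2 astrocyte and Apoe and Gpnmb in CD11b microglia libraries, and none in double-positive ones. DESeq2 called 3, 2, 27 and 80 genes in the same order, and none of those was a member. Cst7 and Clec7a could not be tested in astrocytes.

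**Figure D3:**
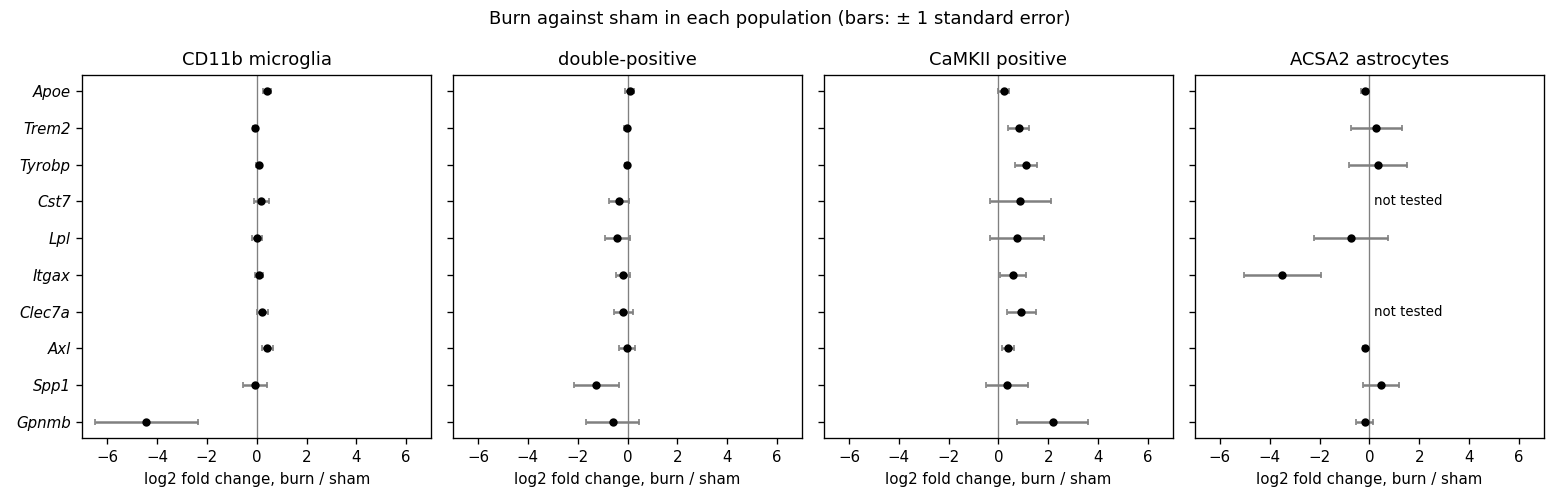
Log2 fold change of burn over sham for each of the 10 genes in each population, with bars of 1 standard error and a line at 0. No value passed the test, the widest bars belonged to genes with few counts such as Gpnmb, and all 10 points lay right of 0 in CaMKII positive libraries.

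In CD11b microglia burn and sham mice overlapped in both genes of the receptor complex. Trem2 had a lowest, median and highest value of 423, 496 and 620 CPM in 8 burn mice and of 429, 545 and 567.7 CPM in 7 sham mice. Tyrobp had 282, 340.5 and 393 CPM in burn and 290, 325.5 and 412 CPM in sham mice. Burn and sham libraries were interleaved for both genes, with log2FC of −0.07 (SE 0.09, 95% interval −0.25 to 0.10, edgeR p.adj = 0.989) and 0.07 (SE 0.08, 95% interval −0.10 to 0.25, edgeR p.adj = 0.991).

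The receptors Clec7a and Itgax were also interleaved. Clec7a was at 16.4, 29.3 and 47.5 CPM in burn and 10.9, 27.0 and 43.3 CPM in sham mice (log2FC 0.22, SE 0.22, edgeR p.adj = 0.962). Itgax was at 17.5, 24.6 and 38.4 CPM in burn and 16.6, 23.5 and 30.1 CPM in sham mice (log2FC 0.08, SE 0.16, edgeR p.adj = 1.00). The same was true of Cst7, Lpl and Spp1, with log2FC of 0.19, 0.01 and −0.07 and edgeR p.adj of 1.00 each. Gpnmb had a log2FC of −4.43 (SE 2.05, edgeR p.adj = 0.639), which rested on 71 counts in sham mouse 18 and 21 in sham mouse 19, and 5 of 8 burn and 3 of 7 sham libraries held no count.

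Apoe and Axl had the lowest unadjusted p of the well-counted members in CD11b microglia, and neither passed the adjustment. Apoe was at 162, 454 and 587 CPM in burn and at 125, 250 and 455 CPM in sham mice, and its log2FC was 0.41 (SE 0.16, 95% interval 0.08 to 0.73, edgeR p = 0.0176, p.adj = 0.639). Axl was at 15.2, 32.9 and 50.3 CPM in burn and at 13.1, 23.0 and 39.0 CPM in sham mice, and its log2FC was 0.42 (SE 0.21, 95% interval −0.02 to 0.86, edgeR p = 0.0609, p.adj = 0.655). Burn and sham ranges overlapped for both.

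Apoe also differed between sequencing batches. In batch 3 the 5 burn mice had 396, 512, 527, 570 and 587 CPM, and the 5 sham mice 237, 250, 323, 363 and 455 CPM. Of the 5 burn libraries, 4 were above all 5 sham libraries. In batch 1 the 3 burn mice had 162, 201 and 202 CPM and the single sham mouse 247.5 CPM, so the order was the opposite there, and batch 2 held a single sham mouse at 125 CPM. In batch 3 alone the log2FC was 0.69 (SE 0.16, edgeR p.adj = 0.304), and without mouse 8, the sham mouse of batch 1, it was 0.68 (edgeR p.adj = 0.374). Axl in batch 3 alone had a log2FC of 0.46 (SE 0.22, edgeR p.adj = 0.607).

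**Figure D4:**
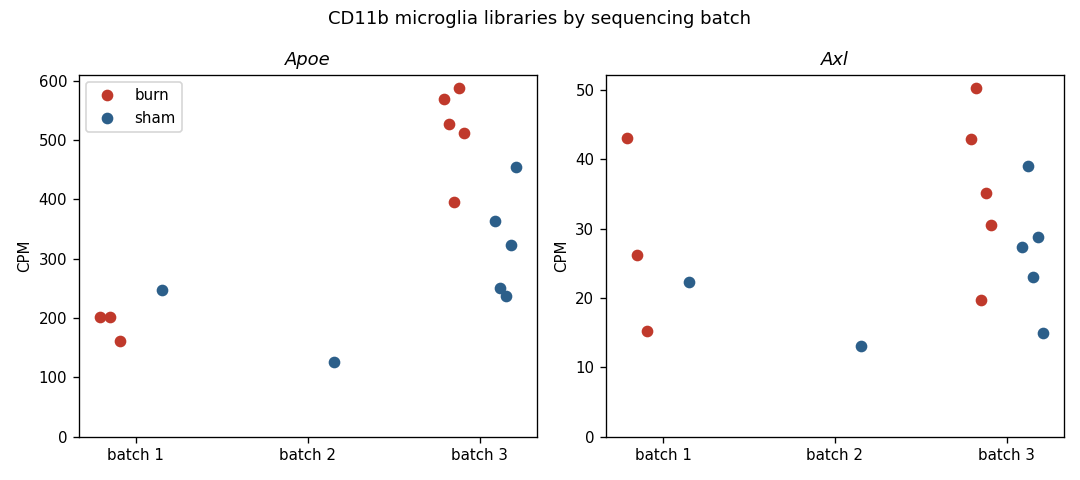
CPM of Apoe and Axl in CD11b microglia libraries by sequencing batch, with burn libraries in red and sham libraries in blue. For Apoe, batch 3 libraries lay at 237 to 587 CPM and those of batches 1 and 2 at 125 to 247.5 CPM, and burn was above sham on average in batch 3 and not in batch 1.

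Border macrophages, which sit along vessels and meninges and are sorted by CD11b too, had a difference in the same direction. All 8 of their markers, Mrc1 and Cd163 among them, had a log2FC above 0, with a median of 0.43, though none was called, and their summed level was 1626 to 1987 CPM in burn and 1365 to 2170 CPM in sham mice. Across the 15 libraries, with batch means removed, Apoe correlated with that sum at r = 0.67 and rho = 0.60. Stab1 alone made up most of the sum, with medians of 1399 CPM for Stab1 and 1763 CPM for all 8 markers. It also stood at a median of 1028 CPM in double-positive libraries, and the correlation without Stab1 was not tested. Astrocyte markers had a median log2FC of −0.73 in the same contrast (8 of 10 below 0), endothelial markers −0.70 (9 of 10 below 0) and oligodendrocyte precursor markers −0.57 (6 of 8 below 0), with none called. Dendritic cell markers had 5 of 6 above 0 with a median of 0.53, also uncalled, and a summed level of 29.7 to 56.35 CPM in burn and 27.0 to 51.35 CPM in sham mice. The part of these cell types in the Apoe and Axl levels was not tested.

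In double-positive libraries 9 of the 10 log2FC were below 0 and none passed. Apoe was at 172, 228 and 355 CPM in burn and 128, 253 and 323 CPM in sham mice, with overlap throughout (log2FC 0.08, SE 0.19, edgeR p.adj = 1.00). Spp1 was at 0.708, 1.32 and 12.0 CPM in burn and 0.299, 3.76 and 33.1 CPM in sham mice, and its log2FC was −1.26 (SE 0.90, edgeR p.adj = 0.885), or −0.19 without mouse 17. Lpl, at 1.83 to 11.1 CPM in burn and 2.46 to 30.5 CPM in sham mice, also had its highest library in mouse 17, and its log2FC was −0.42 (SE 0.50, edgeR p.adj = 0.983). Without that mouse the log2FC of Lpl turned to 0.23. The other 7 members had log2FC between −0.60 and −0.02. Astrocyte markers had 10 of 10 log2FC above 0 in this contrast (median 0.32), oligodendrocyte precursor markers 8 of 8 (median 0.73) and monocyte markers 6 of 6 tested (median 0.34), none called, and their part was not tested.

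The difference between the burn effect in CD11b microglia and that in double-positive libraries was tested as an interaction. None of the 10 members was called, and edgeR called 0% of 28752 genes. The difference was 0.32 (SE 0.27, edgeR p.adj = 1.00) for Apoe and 0.44 (SE 0.42, edgeR p.adj = 1.00) for Axl. With each mouse as a block it was 0.69 (SE 0.17, edgeR p.adj = 0.106) for Apoe, still not called, where 17 genes were called in place of 0. Without the block 1802 genes, no member among them, had an unadjusted p under 0.05.

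In CaMKII positive libraries all 10 log2FC were above 0, with a median of 0.78 against 0.02 over all genes tested, and none passed. Tyrobp was at 16.4, 24.9, 35.3 and 75.2 CPM in the 4 burn mice and at 7.04, 15.4 and 42.3 CPM (lowest, median, highest) in the 6 sham mice, with a log2FC of 1.12 (SE 0.44, edgeR p = 0.0247, p.adj = 1.00). Trem2 was at 18.3, 19.9, 29.2 and 49.4 CPM in the burn mice and at 6.32, 16.7 and 44.2 CPM in the sham mice (log2FC 0.80, SE 0.44, edgeR p.adj = 1.00). Burn mouse 20 was highest and the groups overlapped for both genes. Without that mouse the log2FC of Tyrobp was 0.69, and over all mice left out in turn it ran from 0.69 to 1.41. Markers of microglia had 12 of 12 log2FC above 0 (median 0.56) and those of oligodendrocyte precursors 8 of 8 (median 0.61), and those of border macrophages had 6 of 8 (median 1.05) and of neutrophils 6 of 7 (median 1.14). Endothelial markers had 10 of 10 below 0 (median −0.18), oligodendrocyte markers 8 of 8 (median −0.41) and mural cell markers 8 of 9 (median −0.33). None was called, and their part was not tested.

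In ACSA2 astrocytes none of the 8 members tested passed. Apoe was at 1480, 2897 and 3435 CPM in burn and 2189, 3287 and 4298 CPM in sham mice (log2FC −0.19, SE 0.13, edgeR p.adj = 0.674). Axl was at 258.5, 298 and 335.5 CPM in burn and 299, 313 and 361 CPM in sham mice, with partial overlap (log2FC −0.17, SE 0.09, edgeR p.adj = 0.499). Gpnmb was at 1.53, 4.11 and 6.57 CPM in burn and 1.85, 4.54 and 7.98 CPM in sham mice (log2FC −0.18, SE 0.34, edgeR p.adj = 0.946). Spp1 was at 0.0813, 1.53 and 5.44 CPM in burn and 0.141, 0.616 and 3.12 CPM in sham mice, with overlap (log2FC 0.47, SE 0.74, edgeR p.adj = 0.928), and its log2FC was 0.96 without mouse 8. Trem2, Tyrobp and Lpl, with few counts, had log2FC of 0.28, 0.34 and −0.75 (SE 1.04, 1.16 and 1.48, edgeR p.adj = 0.984, 0.981 and 0.948). That of Trem2 had no steady direction, with a lower mean in burn (0.689 CPM) than in sham mice (1.07 CPM), −0.62 without the batch term and −0.67 in batch 3 alone. The log2FC of Itgax, −3.50, came from the 19 counts of a single sham library. Endothelial markers had 10 of 10 log2FC above 0 in this contrast, with a median of 0.58, and 8 of the 10 had an unadjusted p under 0.05 where 10.7% of all genes did. Border macrophage markers had 6 of 7 tested above 0 (median 0.85). Astrocyte markers had 8 of 10 below 0 (median −0.14), in the direction of Apoe and Axl. None was called, and their part was not tested.

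No gene of the 5 pathway lists was called between burn and sham mice in any population. Those with the smallest p in CD11b microglia were the chemokine Ccl6 (log2FC 0.29, SE 0.11, edgeR p.adj = 0.639) and the ferritin chain Fth1 (log2FC 0.22, SE 0.10, edgeR p.adj = 0.639). In astrocytes they were the fatty acid binding protein Fabp5 (log2FC −0.31, SE 0.09) and the osteopontin receptor Cd44 (log2FC −0.63, SE 0.20), both at an edgeR p.adj of 0.458. In CaMKII positive libraries they were the signalling protease Malt1 (log2FC 0.44) and the lysozyme gene Lyz2 (log2FC 1.98), both at an edgeR p.adj of 1.00, and in double-positive libraries the integrin Itgb3 (log2FC 0.27) and the lipoprotein receptor Lrp8 (log2FC 0.58), at 0.759 and 0.781. Of 20 further genes of the disease-associated state, 17 had a log2FC above 0 in CD11b microglia, with a median of 0.10 against 0.00 over all genes.

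Across mice, several members rose and fell together within double-positive libraries, apart from the receptor complex. With batch means removed from log2(CPM + 1), 38 of 45 pairs had an r above 0 over the 16 libraries, with a median r of 0.52, and 16 pairs had a permutation p of 0.05 or less after Benjamini-Hochberg adjustment over the 45. The share over pairs of other genes was not computed here or in CD11b microglia. Whether such counts are particular to the members was therefore not tested. The closest pair was Clec7a and Axl, with r = 0.94 (permutation p = 1e-05, the smallest that 100000 permutations give, adjusted 0.00045) and rho = 0.94 (permutation p = 2e-05, adjusted 0.0009). It kept r = 0.91 without the 2 libraries farthest from the Clec7a median and r = 0.93 in the 10 libraries of batch 3.

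Cst7, the protease inhibitor, and Itgax had r = 0.84 (permutation p = 0.00028, adjusted 0.00435) and rho = 0.81 (permutation p = 0.00085, adjusted 0.0117), with r = 0.75 without the 2 farthest libraries. Apoe and Clec7a had r = 0.84 (permutation p = 0.00029, adjusted 0.00435) and rho = 0.77 (permutation p = 0.00064, adjusted 0.0117), with r = 0.85 without the 2 farthest. Lpl and Spp1 had r = 0.78 (permutation p = 0.00094, adjusted 0.00705) and rho = 0.67 (permutation p = 0.00731, adjusted 0.0274), with r = 0.66 without the 2 farthest. No pair with Trem2 or Tyrobp passed. The closest, Trem2 with Tyrobp, had r = 0.62 (permutation p = 0.0259, adjusted 0.0619), and r = 0.39 without the 2 farthest libraries. Trem2 correlated with the sum of the microglial markers at r = 0.85 and rho = 0.86, which was not tested. Its value in burn mouse 7, 767 CPM, stood apart from the other burn libraries (435 to 543 CPM).

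**Figure D5:**
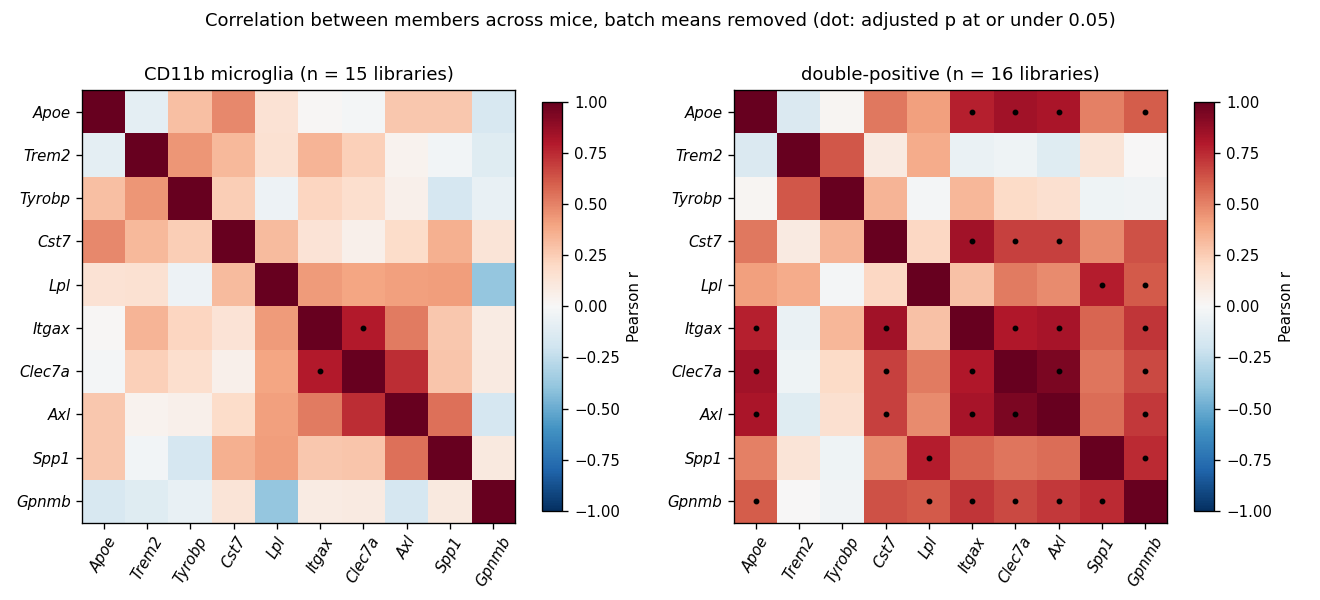
Pearson correlation between each pair of the 10 genes across 15 CD11b microglia libraries (left) and 16 double-positive libraries (right), with batch means removed, red for positive and blue for negative, and a dot where the adjusted permutation p was at or under 0.05. Apoe, Cst7, Itgax, Clec7a, Axl and Gpnmb were positively correlated in double-positive libraries, where 16 pairs over all 10 genes are dotted and none of them holds Trem2 or Tyrobp. Only Itgax with Clec7a is dotted in CD11b microglia.

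In CD11b microglia 35 of 45 pairs had an r above 0, with a median of 0.18, and 1 pair passed. It was Itgax and Clec7a, with r = 0.80 (permutation p = 3e-05, adjusted 0.00135), rho = 0.81 (permutation p = 0.00058, adjusted 0.0261), r = 0.74 without the 2 farthest libraries and r = 0.89 in batch 3. Clec7a and Axl had r = 0.74 (permutation p = 0.00311, adjusted 0.0700) and rho = 0.80 (permutation p = 0.00268, adjusted 0.0603), with r = 0.61 without the 2 farthest. Whether a correlation differs between both gates was not tested.

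Other cell types moved with these levels. Clec7a correlated with the summed monocyte markers at r = 0.78 and rho = 0.81 in CD11b microglia, and with dendritic cell markers at r = 0.66 and rho = 0.64. In double-positive libraries Clec7a correlated with endothelial markers at r = 0.52 and rho = 0.73 and with monocyte markers at r = 0.49 and rho = 0.41, and with astrocyte markers at r = 0.04. Of the monocyte markers in double-positive libraries, Fn1 reached 352.5 CPM and Ccr2 25.9 CPM. Fn1 is not confined to monocytes here, with a median of 1686 CPM in CaMKII positive and 163 CPM in ACSA2 astrocyte libraries. The part of these cell types in the shared variation was not tested.

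Among 8849 further genes with a mean of at least 10 CPM, Lyz2 was the most like the 10 members in CD11b microglia, with r = 0.88 to their mean standardised level over 15 libraries, where the median gene had r = 0.00. Sf3b4 (r = 0.85), Sos2, Dpp7 and Trpc4ap (r = 0.79, 0.79 and 0.78) followed. These values are the highest of a large search and are given as a description.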

How the data were processed

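RNA of sorted cells was rRNA-depleted, prepared with a stranded total RNA kit and sequenced as paired reads on a NovaSeq by the authors. They trimmed the first 15 bases with fastp, aligned with STAR 2.7.1 to a reference named both mm10 and GRCm39, and counted with GenomicAlignments 1.26.0. Whether counting used strand is not given in the sources used here. The authors deposited raw counts per Ensembl gene, with no normalization, in 1 table per population.

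Groups and mouse numbers were taken from the sample labels. The 10 members and all gene lists were chosen with earlier results of these data known. A table of Ensembl IDs and names gave a symbol to 52073 of 56980 IDs, and exon lengths and overlaps came from a GENCODE annotation of GRCm38. Genes with at least 10 counts in all were tested with edgeR 4.0.16 (quasi-likelihood test, TMM scaling, batch as a term) in R 4.3.3, p was adjusted by Benjamini-Hochberg over all genes tested (p.adj), and genes were called at the limits the authors used (p.adj up to 0.05, log2FC of 1 or more in either direction). The script was tested on simulated data. Libraries held 13346143 to 134703744 counts, and floors (3 counts) and 95% exact intervals of count ratios cover counting error only. The 95% intervals of log2FC used the t quantile at edgeR's total degrees of freedom. Ratios to Tyrobp used a pseudocount of 0.1 CPM and exact sign-flip tests, and correlations used log2(CPM + 1) and 100000 permutations.

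Genes outside the members were named by rule: the pair with the smallest p in the pathway lists per burn contrast, and the 5 most like the members. Markers and the 10 further genes set against Tyrobp were named outside that rule, after their values were seen. Libraries of the same mouse number came from the same animal, which pairs populations, though their deviations from group means correlated weakly (medians 0.0502, 0.0687 and 0.181 for the population comparisons). Burn and sham mice are different animals and were not paired. Alternatives were DESeq2 1.42.0, other scaling and filters, no batch term, batch 3 alone, all deposited libraries, mouse as a block and leaving out each mouse.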

Additional observations from a re-analysis of the deposited data

Results flagged for a closer look

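Of 76 groups of 4 to 9 libraries tested with Dixon's ratio, 15 held a library that stood apart. The usual rate of about 1 in 20 assumes normally distributed values, which genes with mostly 0 counts do not have. A group with counts in a single library is flagged by construction, as were Itgax and Clec7a in ACSA2 astrocytes. The 15 are therefore not read as an excess. In double-positive libraries these were Trem2 in burn mouse 7 (767 CPM), Tyrobp in sham mouse 18 (376 CPM), Lpl and Spp1 in sham mouse 17 (30.5 and 33.1 CPM) and Gpnmb in sham mouse 19 (10.3 CPM). In CD11b microglia they were Trem2 in burn mouse 2 (620 CPM), Tyrobp in sham mouse 19 (412 CPM), and Gpnmb in burn mouse 7 (0.772 CPM) and sham mouse 18 (3.97 CPM). In ACSA2 astrocytes they were Tyrobp and Itgax in sham mouse 17 (2.46 and 0.659 CPM), Lpl in burn mouse 20 (1.69 CPM) and sham mouse 16 (3.55 CPM), and Clec7a in burn mouse 24 (0.104 CPM). In CaMKII positive libraries it was Spp1 in sham mouse 8 (11.6 CPM).

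In the libraries of mouse 3, which entered only the fits with all deposited libraries, 2 of 40 member values were above and 4 below the range of sham mice. The higher ones were both in its CD11b library, where Cst7 was at 5.26 CPM (sham 1.51 to 4.68 CPM) and Clec7a at 57.0 CPM (sham 10.9 to 43.3 CPM). The lower ones were Trem2 in CD11b (387 CPM, sham 429 to 567.7 CPM), Apoe in double-positive (118 CPM, sham 127.5 to 323 CPM) and in ACSA2 astrocyte libraries (2068 CPM, sham 2189 to 4298 CPM), and Itgax in CaMKII positive libraries (5.62 CPM, sham 6.44 to 30.8 CPM).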

How the results depend on the processing

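The number of members called stayed at 0 in each burn contrast under every alternative run, and at 9 and 6 in CD11b microglia and CaMKII positive libraries against astrocytes to within 1.5 times. Between double-positive and CD11b libraries it was 0, 2 with the replicate block (mouse) and 1 without mouse 17. Lpl against astrocytes in CaMKII positive libraries was called by DESeq2 (2.46) and with all deposited libraries (2.32). DESeq2 gave no adjusted p for Itgax in CD11b microglia against astrocytes. The ratio of Lpl to Tyrobp passed with a pseudocount of 1 CPM, added after seeing the data as was leaving mouse 17 out of the population comparisons. Burn log2FC that changed sign, none of them called, were as follows, and the cause was not tested. Without a batch term Spp1 was −0.17 (CaMKII positive) and 0.056 (CD11b), Trem2 0.035 and Axl 0.16 (double-positive), and Trem2 −0.62 (ACSA2). In batch 3 alone Apoe was −0.018 (double-positive), Trem2 −0.67 (ACSA2) and Spp1 0.49 (CD11b). With all deposited libraries, which moved the median of all genes by 0.22 in double-positive libraries, Trem2 was 0.42, Tyrobp 0.42, Itgax 0.057, Clec7a 0.053 and Axl 0.29 there, Lpl −0.0060 in CD11b, and the interactions of Apoe −0.10 and Tyrobp −0.33. The interaction of Trem2 was 0.0061 with the replicate block and 0.0058 in batch 3. Mean sham Trem2 and Tyrobp in double-positive libraries moved by more than 1 SD with all deposited libraries. Leaving out 1 mouse at a time gave −0.17 to 0.90 for Itgax and −0.11 to 0.97 for Spp1 (CaMKII positive), −0.019 to 0.17 for Apoe, −0.88 to 0.23 for Lpl, −0.35 to 0.049 for Itgax, −0.34 to 0.14 for Axl and −1.23 to 0.47 for Gpnmb (double-positive), −0.55 to 0.59 for Trem2, −0.091 to 1.404 for Tyrobp and −1.81 to 0.37 for Lpl (ACSA2), and −0.10 to 0.16 for Lpl, −0.074 to 0.16 for Itgax and −0.40 to 0.49 for Spp1 (CD11b). Few counts limit Gpnmb in CD11b microglia (141 over 15 libraries) and Clec7a and Itgax in astrocytes (3 and 19 over 17).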
